A study of Homo sapiens with 9 samples.

Results

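The comparison described here sets A549 cells carrying shLITATS1-2, the second of 2 short hairpin RNAs against the long noncoding RNA LITATS1, against cells carrying the control hairpin shNT. A549 is an established human lung adenocarcinoma line of epithelial origin. All cells were transduced with a lentiviral hairpin construct, left for 2 days, placed under puromycin (1 ng/mL as the labels give it) and harvested after 3 more days, so transduction and drug selection were common to both arms. Each arm held 3 libraries, which gives 6 of the 9 libraries in the series; the other 3, with the first hairpin shLITATS1-1, are used below only as a second reference. The labels number the libraries as replicates without naming separate cultures or infections. The p-values therefore rest on how far these libraries differ, which may be technical. The members were the columns labelled with these 2 groups and all genes with enough counts, 15500 of 60676.

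A short hairpin RNA is cut by Dicer into a small duplex, and 1 strand is loaded into an Argonaute protein, which cleaves RNAs that pair with the whole strand. As microRNAs do, the loaded strand can also lower messenger RNAs whose 3′ untranslated region pairs with its first bases, the seed. For that reason studies of this kind use more than 1 hairpin per target. LITATS1 itself is known as an RNA that restrains transforming growth factor beta signalling, and the genes of that pathway, of the matrix and of the cell cycle are left aside here in favour of 45 other gene lists.

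Each library had 19610514 to 19989652 fragments assigned to genes, and the first principal component of the 6 libraries, with 82% of the variance, set the groups apart. The epithelial markers summed to 5550 to 5831 CPM (fragments of a gene scaled to a common library total) with shNT and 5649 to 5978 with shLITATS1-2. The 8 fibroblast markers summed to 2.85 to 3.47 CPM with shNT and to 2.14 to 2.59 with shLITATS1-2, with DCN and POSTN at 0 in all 6 libraries. PTPRC and CD3E, of blood cells, were also at 0 in all 6. The 8 immune markers summed to 1.56 to 1.65 CPM with shNT and to 5.65 to 6.83 with shLITATS1-2, and the 7 endothelial markers reached at most 1.32 CPM. Mitochondrially encoded genes took 12.2% ± 0.226 (SD, n = 3) of gene fragments with shNT and 7.97% ± 0.235 with shLITATS1-2, and the part of this difference in the other results was not tested.

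LITATS1 (ENSG00000233621; GRCh38 chromosome 1, 37454879 to 37474411, minus strand, annotated in GENCODE 29 as antisense) was the check on the labels. It stood at 14, 14.5 and 16.9 CPM with shNT, from 274, 283 and 328 fragments, and at 3.33, 3.03 and 2.69 CPM with shLITATS1-2, from 69, 63 and 56. Levels here and below are CPM scaled by the trimmed mean of M values (TMM), and the groups did not overlap. The log2 fold change was -2.32 (SE 0.11; adjusted p = 3.78e-29 by edgeR with Benjamini-Hochberg correction, quasi-likelihood test). The same test, with a threshold of 0.05, made every call below.

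With shLITATS1-2, 4302 genes (27.8% of those tested) were higher and 4485 (28.9%) lower than with shNT, 56.7% in either direction. At least 2-fold changes were made by 586 higher (3.78%) and 336 lower genes (2.17%), 5.95% together, and a called gene changed by 0.38 in the median, as the size of its log2 fold change. Scaling by library size alone, without TMM, moved the median log2 fold change of all tested genes from -0.0040 to 0.11 and gave 6058 higher and 2967 lower genes. Small changes are therefore relative to the scaling, and gene lists whose majority turned under it are named with both counts. Against shLITATS1-1, 4755 genes (30.7%) were higher and 4684 (30.2%) lower, 60.9% in either direction, and at least 2-fold 3.05% higher and 5.27% lower, 8.32% together. Both contrasts use the shLITATS1-2 libraries, and 2211 genes (14.3%) were higher and 2295 (14.8%) lower in both.

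The genes that fell furthest below both other groups are shown first, with the stretch of RNA that many of them shared. Among genes with a mean of at least 5 CPM, 75 lay at least 2-fold below both shNT and shLITATS1-1, and 69 of these had an annotated 3′ untranslated region. Runs of 7 bases were counted in the longest annotated region of each gene in GENCODE 29, on the transcribed strand. That region could come from any annotated transcript with a coding sequence, and its use in A549 cells was not examined. The run with the largest difference in share between these genes and all genes with a region was ACTTTCA, found in 46 of the 69 (66.7%), in 1861 of all 10363 genes with a region (18.0%) and in 4 of the 28 genes (14.3%) at least 2-fold above both groups. Ranked next were overlapping runs and runs rich in A and T. Of the overlapping runs, AACTTTC was in 58.0% of the 69 genes against 16.3% of all, and CTTTCAA in 52.2% against 18.8%. ATTTTTT, ranked between these, was in 85.5% against 51.5%. Ranked lower were TGAATTT (62.3% against 30.6%), AAATTTT (69.6% against 38%) and other such runs. ACTTTCA was picked because it was common in genes chosen by these values, so its share is a description without a test. A match is not evidence of binding. The hairpins' own sequences were not used here, so whether the run pairs with either strand of shLITATS1-2 was not tested. Examples are printed as RNA-sense DNA letters, 5′ to 3′, with the run in capitals and up to 10 bases on each side, for the LITATS1 transcript and for 3 of the genes that fell most.
LITATS1 (exon, chr1:37455648-37455674, minus strand): catgcatgtaACTTTCAtactcaaaaa
PRPS2 (chrX:12823096-12823122, plus strand): tgaggcgacaACTTTCAagtatataat
SPCS3, match 1 of 3 (chr4:176328665-176328691, plus strand): ggtagttaaaACTTTCAggtgcctgta
SPCS3, match 2 of 3 (chr4:176331431-176331457, plus strand): tacatgtgtgACTTTCAgtagtttaaa
SPCS3, match 3 of 3 (chr4:176331967-176331993, plus strand): attttaaaagACTTTCAgatttatgct
PDE3A, match 1 of 2 (chr12:20681799-20681825, plus strand): gttgatactcACTTTCAatattttatt
PDE3A, match 2 of 2 (chr12:20683163-20683189, plus strand): taagtttgtgACTTTCAtacacaccca

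The LITATS1 transcript of 1395 bases held the run once, at base 610. Of the 15 named lower genes (the 12 with the lowest log2 fold change at 20 CPM or more and the 8 furthest below both groups, which overlap), 10 held it in the 3′ untranslated region: SPCS3, AK3, PRPS2, RMI2, SGPP1, TGOLN2, LBR, SLC4A4, NTAN1 and PDE3A. The other 5, C5, CXCL5, PEG10, SLC6A6 and SGCE, held none in the region searched.

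All 10363 genes with a region were then grouped by their number of matches. Of 8502 genes with no match, 33.3% were lower and 32.4% higher than with shNT, with a median log2 fold change of -0.0070. Of 1489 genes with 1 match 48.6% were lower (median -0.11), of 293 with 2 matches 62.8% (median -0.24) and of 79 with 3 or more 70.9% (median -0.30). For the first hairpin against the same shNT libraries the medians of these 4 groups were -0.041, 0.027, 0.080 and 0.10. Genes with matches had longer regions, with a median of 1503 bases for no match and 6915 for 3 or more. In 3 groups of near-equal size by length, 58.9% of genes with a match were lower against 37.5% without one among the shortest regions, 55% against 30.8% in the middle group and 49.5% against 30.4% among the longest. These shares and medians read the same values that chose the run and have no test. The run was chosen from genes below shLITATS1-1 as well as shNT, which favours a difference between the hairpins.

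**Figure D1:**
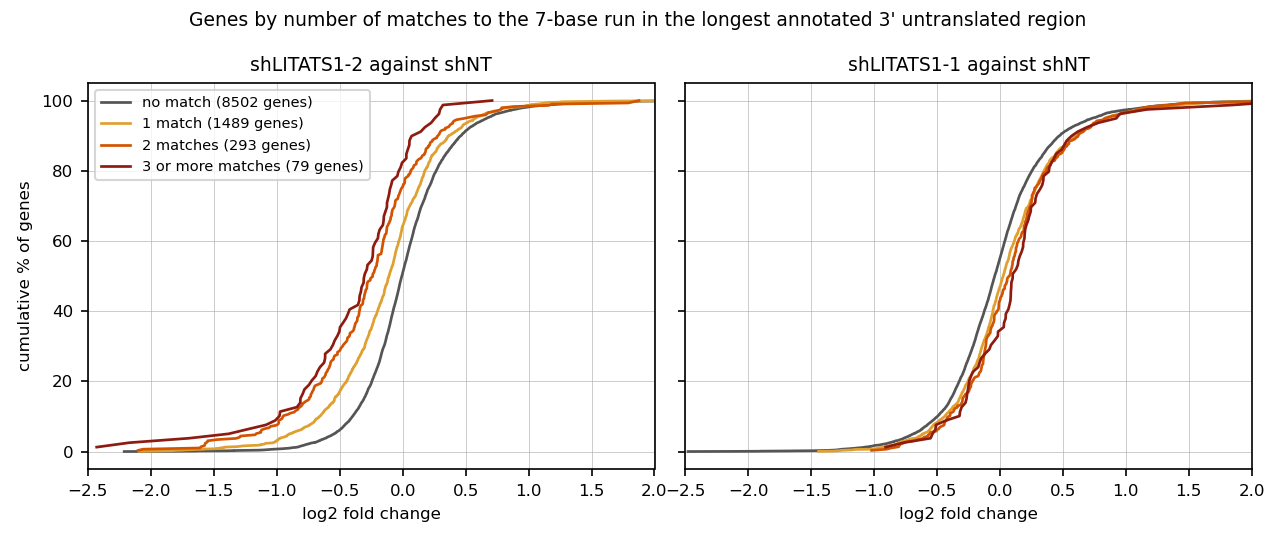
Cumulative share of genes (%) by log2 fold change, for genes with no match, 1, 2 or 3 or more matches to the 7-base run in the 3′ untranslated region. In the left panel, shLITATS1-2 against shNT, the curves shift to lower values with more matches (medians -0.0070, -0.11, -0.24 and -0.30). In the right panel, shLITATS1-1 against shNT, the medians run from -0.041 to 0.10. The run was chosen from genes below both shNT and shLITATS1-1. That choice favours a difference between the panels, which has no test. Values beyond the axis limits are not drawn.

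Among the 12 genes with the lowest log2 fold changes at a mean of 20 CPM or more, C5, the complement component cleaved to the chemoattractant C5a, stood at 89.2, 90.1 and 87.2 CPM with shNT and at 19.9, 17.2 and 20.4 with shLITATS1-2, and fell by 2.21 (SE 0.051) on the log2 scale. SPCS3, a subunit of the signal peptidase that trims secreted proteins, stood at 101, 90.2 and 93.2 CPM with shNT and at 20.3, 21.3 and 21.4 with shLITATS1-2, and fell by 2.17 (SE 0.050). In both cases the 2 groups were far apart, while shLITATS1-1 lay beside the control at means of 102 and 104 CPM. Of the other signal peptidase genes, SEC11A, a catalytic subunit, also fell, by 1.29 (SE 0.034), from a mean of 231 to 94.7 CPM. SEC11C, the alternative catalytic subunit, rose by 0.23, and SPCS2 fell by 0.18 and SPCS1 by 0.10. The last 2 calls were lost under library-size scaling, at -0.068 and 0.016.

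AK3, a mitochondrial adenylate kinase that uses GTP, stood at 95.9, 94.9 and 98.8 CPM with shNT and at 24.2, 22.0 and 21.5 with shLITATS1-2. PRPS2, which makes the ribose donor of nucleotide synthesis, stood at 92.1, 92.6 and 90.6 CPM and at 22.3, 23.9 and 24.1. Neither gene's groups overlapped, with log2 fold changes of -2.1 (SE 0.047) and -1.97 (SE 0.047). PRPS1, the sister enzyme, fell by only 0.24, from 115 to 97.2 CPM, and AK4, another mitochondrial adenylate kinase, fell by 0.76. TGOLN2, a marker protein of the trans-Golgi network, fell from a mean of 352 to 101 CPM, LBR, the lamin B receptor of the inner nuclear membrane, from 103 to 30.5, and RMI2, a partner of the Bloom helicase, from 34.5 to 9.35. RMI1, which binds RMI2, fell by 0.42. PEG10, a retrotransposon-derived imprinted gene, fell from 311 to 81.5 CPM, and SGCE, its imprinted neighbour that encodes epsilon-sarcoglycan, from 68.2 to 19.7.

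CXCL5, a chemokine that attracts neutrophils, was lower than the control with the second hairpin and higher with the first. Its levels were 516, 478 and 480 CPM with shNT and 130, 129 and 134 with shLITATS1-2, against a mean of 825 ± 13.2 (SD, n = 3) with shLITATS1-1. The log2 fold change against shNT was -1.90 (SE 0.033) with the second hairpin and 0.75 with the first, and the direct contrast of the hairpins gave -2.65. SLC6A6, the taurine transporter, was lower with both hairpins, at 75.3 ± 0.924 CPM with shLITATS1-2 and 118 with shLITATS1-1 against 263 ± 9.29 with shNT (SD, n = 3).

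At the other end stood the 12 genes with the highest log2 fold changes at 20 CPM or more. STC1, stanniocalcin 1, a secreted inhibitor of the protease that frees insulin-like growth factors, stood at 61.6, 63.9 and 63.6 CPM with shNT and at 280, 276 and 287 with shLITATS1-2. NT5E, the surface enzyme CD73 that makes adenosine from AMP, stood at 63.0, 62.9 and 63.9 CPM and at 273, 269 and 269. The groups were far apart for both genes, with log2 fold changes of 2.16 (SE 0.036) and 2.1 (SE 0.036). With the first hairpin STC1 reached 113 CPM and NT5E 249.

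PODXL, podocalyxin, a sialylated surface protein that keeps membranes apart, rose by 2.02 (SE 0.038) from 49.1 to 199 CPM. LIPH, a phospholipase that makes lysophosphatidic acid, rose by 1.81 from 24.2 to 84.9 CPM. The gene CPM, for the membrane carboxypeptidase M, rose by 1.79 from 18.3 to 63.3, and ATOSB by 1.77 from 18.1 to 61.6. ATOSB also rose with the first hairpin, by 1.44. PLEK2, pleckstrin 2, an actin-associated protein, rose by 2.36 from 14.2 to 73.1 CPM. All 12 genes of this ranking, which also held FST, ITGA5 and COL1A1, lay in separate ranges in the 2 groups, as did 59.6% of all tested genes, and the choice of genes with the largest folds favours such separation. ITGA5 pairs with the integrin β1 chain, whose gene ITGB1 rose by 0.53, from a mean of 1923 to 2781 CPM.

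Some of the genes that rose stood clear of both other groups. GREM1, gremlin 1, a secreted antagonist of bone morphogenetic proteins, stood at 35.0, 33.5 and 33.0 CPM with shNT and at 118, 121 and 123 with shLITATS1-2, while shLITATS1-1 had a mean of 29.1. PPL, periplakin, a linker of desmosomes and intermediate filaments, stood at 8.97, 10.7 and 8.73 CPM with shNT and at 32.2, 34.0 and 32.6 with shLITATS1-2, with 11 in the first hairpin. Both were chosen as high against both other groups, and the contrasts of the hairpins gave 2.05 (SE 0.046) and 1.58. The same rule named NTSR1, TNC, KRT15, a basal-cell keratin (1.90 against shNT and 1.65 against shLITATS1-1), BMF, a proapoptotic BCL2 family member (1.51 and 1.71), STMN3, a microtubule-destabilising stathmin (1.46 and 2.46), and SORL1, a sorting receptor (1.41 and 1.52). STMN3 was lower than the control with the first hairpin, at 7.85 CPM against 15.7, and higher with the second, at 43.3.

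**Figure D2:**
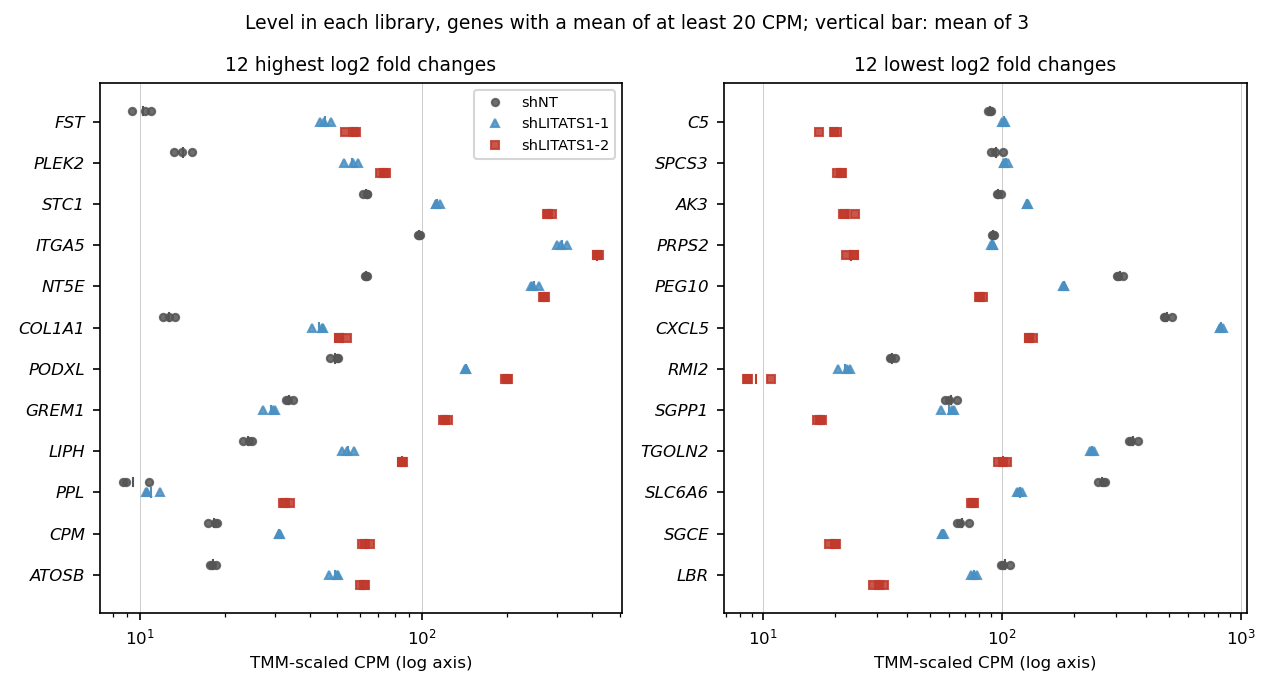
TMM-scaled CPM (log axis) in each of the 9 libraries for the 12 highest and 12 lowest log2 fold changes of shLITATS1-2 against shNT among genes with a mean of at least 20 CPM; points are libraries and vertical bars are means of 3. The genes were chosen by these values; the shLITATS1-1 points lie near shNT for GREM1, PPL, C5, SPCS3, PRPS2 and SGPP1 and above it for CXCL5.

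By difference in mean CPM, which is a relative measure, the losses were largest in mitochondrial RNAs, ferritin and a retinal dehydrogenase. MT-RNR2, the large mitochondrial ribosomal RNA, stood at 38522, 35730 and 36228 CPM with shNT and at 18145, 17903 and 18541 with shLITATS1-2. All 13 mitochondrially encoded protein genes were lower, with log2 fold changes from -0.76 to -0.43 and a median of -0.65, and so were both mitochondrial ribosomal RNAs. Against shLITATS1-1, 10 of the 13 were lower as well. FTL, the ferritin light chain that stores iron, fell from a mean of 9249 ± 408 to 5043 ± 165 CPM (SD, n = 3), and ALDH1A1, which oxidises retinal to retinoic acid, from 6359 ± 111 to 3521 ± 26.7. ALDH1A1 stood at 9821 CPM with the first hairpin, so the direct contrast of the hairpins gave -1.48.

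Of the genes with the largest gains in CPM, ASPH, an aspartyl hydroxylase of the endoplasmic reticulum, stood at 1951, 1818 and 1839 CPM with shNT and at 2987, 3076 and 3092 with shLITATS1-2. HSPA5, the chaperone BiP, stood at 1070, 1060 and 1065 CPM and at 1794, 1834 and 1835. Neither gene's groups overlapped, with log2 fold changes of 0.71 (SE 0.028) and 0.77 (SE 0.027), while the first hairpin reached 2165 and 1133 CPM. DCBLD2, a neuropilin-like surface protein, rose by 0.79 to 1468 CPM, TGFBI by 0.74 to 1933, FLNA, filamin A, by 0.42 to 3019 and ANXA2, annexin A2, by 0.23 to 3902. TGFBI stood higher still with the first hairpin, at 3868 CPM.

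**Figure D3:**
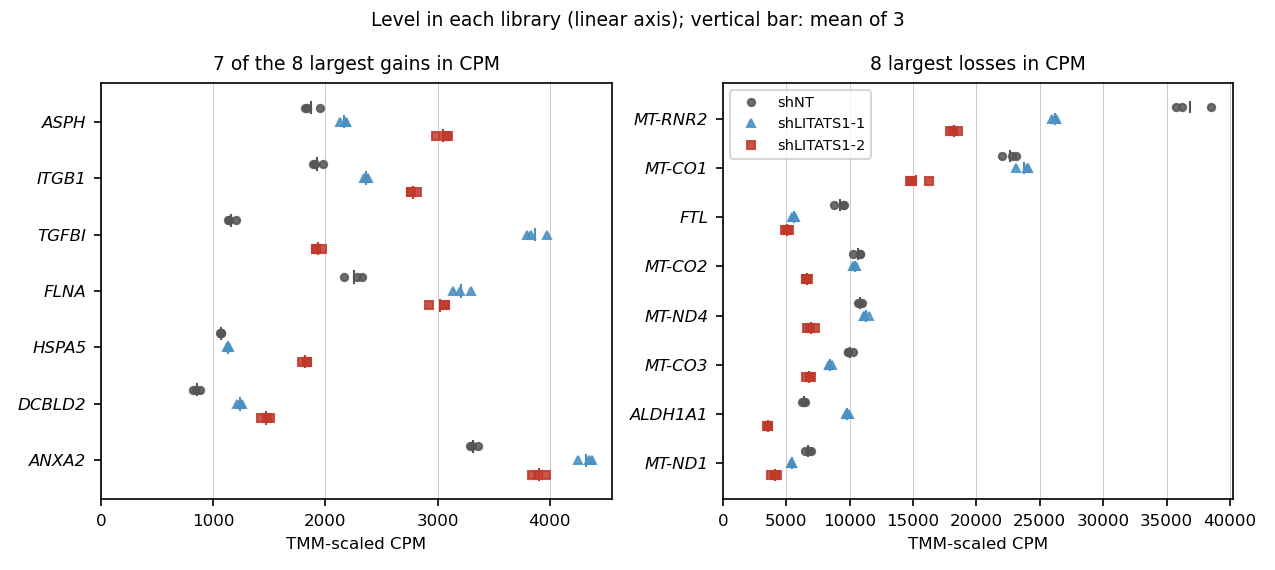
TMM-scaled CPM on a linear axis in each of the 9 libraries for 7 of the 8 genes with the largest gain and the 8 with the largest loss in mean CPM, shLITATS1-2 against shNT; points are libraries and vertical bars are means of 3. MT-RNR2 drops from 36826 to 18196 CPM on average, and ALDH1A1 lies below the control with shLITATS1-2 and above it with shLITATS1-1.

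The 45 lists covered 2247 tested genes. More members were higher than lower in 24 lists and more were lower in 19, and the other lists were tied. Under library-size scaling the split was 38 and 5. The 5 were nucleoporins, messenger RNA decay, the tricarboxylic acid cycle, the urea cycle with polyamines and mitochondrial ribosomal proteins. This scaling moves all genes upward alike, so a turned majority alone sets no list apart. The partners of list members described below were chosen with their values known. Counts against shNT are to be read against 27.8% higher, 28.9% lower and a median of -0.0040 over all tested genes, counts under library-size scaling against 39.1%, 19.1% and 0.11, and counts against shLITATS1-1 against 30.7% higher and 30.2% lower.

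**Figure D4:**
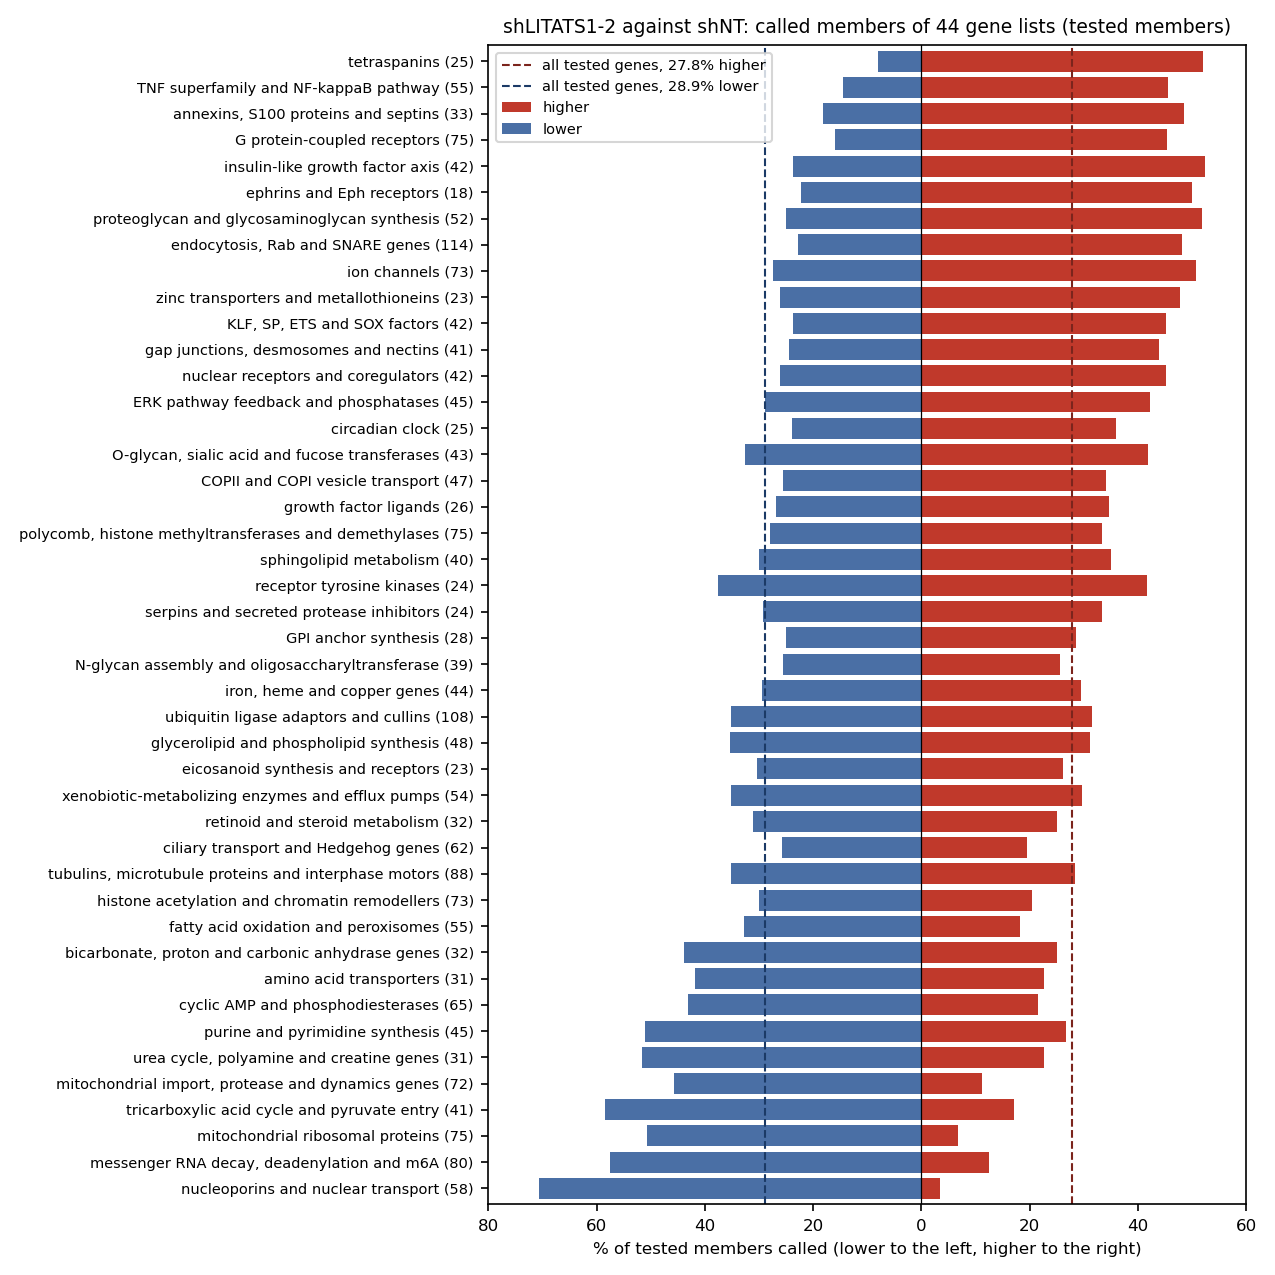
Percentage of tested members called higher (right, red) and lower (left, blue) with shLITATS1-2 against shNT in 44 gene lists, with the number of tested members in brackets; dashed lines mark the shares over all tested genes, 27.8% and 28.9%. Tetraspanins, the TNF superfamily and G protein-coupled receptors stand near the top, and nucleoporins, with 3.45% higher and 70.7% lower, at the bottom.

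G protein-coupled receptors pass signals from hormones and peptides to heterotrimeric G proteins. Of 75 tested, 34 were higher (45.3%) and 12 lower (16%), with a median log2 fold change of 0.24 and 11 members at least 2-fold higher. Compared with shLITATS1-1, 26 were higher and 20 lower, where 30.7% and 30.2% of all tested genes were. NTSR1, the receptor of neurotensin, stood at 0.615, 0.768 and 0.514 CPM with shNT and at 12.8, 14.9 and 14 with shLITATS1-2, a log2 fold change of 4.45 (SE 0.16). The first hairpin had 1.47 CPM, and no shLITATS1-2 library came near the others. NTS, the peptide that binds it, went the other way, from 26.1 ± 1.85 CPM with shNT to 10.3 ± 0.553 with shLITATS1-2 (SD, n = 3), and stood at 76.0 with the first hairpin. C5AR2, a receptor of C5a, rose by 2.28 from 0.701 to 3.44 CPM, while C5AR1, the classical receptor of that peptide, did not pass (-0.33, SE 0.15; adjusted p = 0.0547 in edgeR's test).

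SUCNR1, the succinate receptor, rose by 2.3 from 0.974 to 4.83 CPM and LPAR5, a lysophosphatidic acid receptor, by 1.83 from 0.632 to 2.26. Further receptors, chosen after their values were seen because their level was higher, were OXTR, the oxytocin receptor, and F2R, the thrombin receptor PAR1. OXTR stood at 14.7, 13 and 12.4 CPM with shNT and at 41.1, 45.3 and 43.6 with shLITATS1-2, against 16.8 with the first hairpin. F2R stood at 49.7, 46.0 and 47.5 CPM and at 154, 154 and 155. Neither receptor's groups overlapped. EDNRA, an endothelin receptor, fell by 1.23 from 3.25 to 1.38 CPM.

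Cyclic AMP, the second messenger of many of these receptors, is made by adenylyl cyclases and removed by phosphodiesterases. Of 65 genes of this system 14 were higher and 28 lower (median -0.12), a majority that turned without TMM, with 21 higher and 17 lower. Compared with shLITATS1-1, 16 were higher and 32 lower. PDE3A, a phosphodiesterase of cyclic AMP that cyclic GMP inhibits, stood at 31.8, 28.9 and 30.3 CPM with shNT and at 6.76, 6.74 and 8.27 with shLITATS1-2, and at 67.0 with the first hairpin. PDE4D, a cyclic AMP-specific phosphodiesterase, stood at 321, 298 and 286 CPM and at 150, 148 and 158. Both fell with no overlap of groups, by 2.06 (SE 0.077) and 0.99 (SE 0.034), and PDE3B, the second enzyme of the PDE3 family, fell by 0.42. GNAL, a stimulatory G protein subunit, fell by 1.3. CREB5, a transcription factor that binds cyclic AMP response elements, rose by 2.22 from 0.820 to 3.85 CPM, RGS2, which shuts off Gq subunits, by 1.85 from 9.43, 7.32 and 8.12 to 31.6, 28.3 and 30.1, and CREB3L1 by 1.35.

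Receptor tyrosine kinases went both ways, with 10 of 24 higher and 9 lower (median 0.045). RET, the kinase of the receptor for glial cell line-derived factors, rose by 2.05 from 1.81 to 7.53 CPM, while GFRA1, its ligand-binding coreceptor, fell by 1.64 from 13.8 to 4.45. FGFRL1, a receptor for fibroblast growth factors that lacks a kinase domain, stood at 39.0, 41.5 and 42.8 CPM with shNT and at 98.5, 94.8 and 98.0 with shLITATS1-2, with no overlap, and FGFR4 fell by 0.64. NTRK3, the receptor of neurotrophin 3, fell by 0.66 to 13.5 CPM and stood at 48.0 with the first hairpin. Among 26 growth factor ligands 9 were higher and 7 lower (median -0.043). PDGFB rose by 1.77 from 4.75 to 16.2 CPM and PDGFD fell by 1.15 from 48.6 to 21.9, the latter at 51.8 with the first hairpin. PDGFRA, a receptor of the PDGFB product, had a mean below 1 CPM in each group and did not pass.

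**Figure D5:**
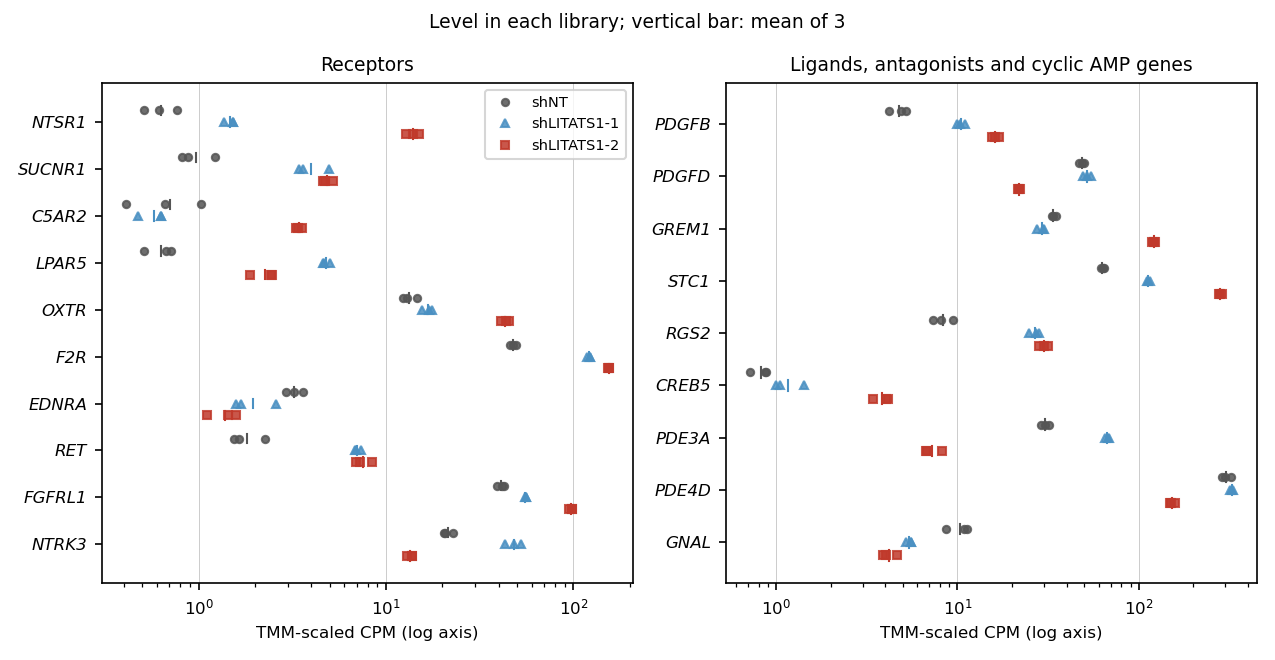
TMM-scaled CPM (log axis) in each of the 9 libraries for 10 receptors (left) and 9 ligands, antagonists and cyclic AMP genes (right); points are libraries and vertical bars are means of 3. NTSR1 lies above 12 CPM with shLITATS1-2 only, and NTRK3, PDE3A and PDGFD lie below the control with shLITATS1-2 but not with shLITATS1-1.

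The insulin-like growth factor axis had 22 of 42 members higher and 10 lower (median 0.084). Beside STC1, the binding protein gene IGFBP1 rose by 1.27 from 14.3 to 34.5 CPM and IGFBP6 by 0.71, while IGFBP3 fell by 0.34 and FOXO3, a transcription factor that insulin signalling keeps out of the nucleus, by 0.74. In the list of ERK pathway feedback genes and phosphatases, 19 of 45 were higher and 13 lower (median 0.057). DUSP8, a phosphatase of the JNK and p38 kinases, rose by 1.64 from 2.68 to 8.37 CPM, DUSP16 by 1.02 from 40.6 to 82.4 and SPRY4, a Sprouty inhibitor, by 0.82, and IL11 fell by 0.62 where the first hairpin gave 1.07. Ephrins and their receptors had 9 of 18 members higher and 4 lower (median 0.31), mostly at low levels. EFNB2 rose by 0.91 to 5.07 CPM and EPHA7 fell by 1.04 to 0.867.

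The tumour necrosis factor superfamily and the NF-κB pathway had 25 of 55 members higher and 8 lower (median 0.14), and 23 and 16 against shLITATS1-1. TNFRSF21, death receptor 6, stood at 101, 90.7 and 93.8 CPM with shNT and at 181, 187 and 185 with shLITATS1-2, without overlap, and at 102 with the first hairpin. TNFRSF9 rose by 1.22 and TNFRSF19 by 1.09, both to under 6 CPM. NFKB2 and TRAF2, of the noncanonical branch, fell by 0.55 and 0.45. NFKB2 was lower still with the first hairpin, at a log2 fold change of -0.94.

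Ion channels had 37 of 73 members higher (50.7%) and 20 lower (27.4%), with a median of 0.24, and 21 and 27 against shLITATS1-1. LRRC8A, the obligatory subunit of the volume-regulated anion channel, stood at 61.9, 63.7 and 61.6 CPM with shNT and at 164, 170 and 160 with shLITATS1-2, a log2 fold change of 1.40 (SE 0.039) with no overlap. Its partner subunits did not move together: LRRC8C rose by 0.31, LRRC8D fell by 0.50 and LRRC8B did not pass (-0.077). The chloride channels CFTR and ANO1 rose by 2.29 and 1.88 from low levels, to 1.94 and 3.92 CPM. KCNN4, a calcium-activated potassium channel chosen after its values were seen, rose by 1.17 from 46.9 to 105 CPM, and KCNK5, a two-pore potassium channel, fell by 1.04 to 5.75. KCNJ16 fell by 1.28 to 2.92 CPM and stood at 28.4 with the first hairpin.

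Of 32 transporters of bicarbonate and protons and carbonic anhydrases, 8 were higher and 14 lower (median -0.22), and 10 and 10 under library-size scaling. SLC4A4, a sodium bicarbonate cotransporter, stood at 11, 10.1 and 11.5 CPM with shNT and at 1.35, 2.26 and 2.40 with shLITATS1-2, without overlap, and fell by 2.43 (SE 0.13). CA9, a surface carbonic anhydrase, fell by 1.39 to 1.12 CPM. Zinc transporters and metallothioneins had 11 of 23 members higher and 6 lower (median 0.14). MT2A, a metal-binding metallothionein, rose by 0.71 to 242 CPM and the zinc importer SLC39A4 by 0.76, and the exporters SLC30A4 and SLC30A7 fell by 0.95 and 0.74.

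Iron, heme and copper genes split evenly, 13 of 44 in each direction (median -0.018). ATP7A, a copper-exporting ATPase, stood at 46.2, 43.6 and 41.3 CPM with shNT and at 13.7, 15.2 and 15.3 with shLITATS1-2, and fell by 1.57 (SE 0.063) with no overlap. FTH1, the heavy ferritin chain, fell by 0.75 from 1320 to 788 CPM, and HMOX1, heme oxygenase 1, by 0.79 where the first hairpin gave 0.62. CP, ceruloplasmin, rose by 0.95 from 19.1 to 37.0 CPM and BMP6, an inducer of hepcidin, by 0.98. The log2 fold change of CP with the first hairpin was 0.91.

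In nucleotide metabolism 12 of 45 genes were higher and 23 lower (median -0.16), and 18 and 18 under library-size scaling. Beside AK3 and PRPS2, which fell, and NT5E, which rose, the catabolic enzymes XDH, xanthine dehydrogenase, and ADA, adenosine deaminase, rose by 1.08 and 0.81, from 14.2 to 29.9 and from 25.9 to 45.3 CPM. ENTPD1, the ectoenzyme CD39 upstream of NT5E, fell by 0.74 to 3.42 CPM. Of 41 genes of the tricarboxylic acid cycle and pyruvate entry 7 were higher and 24 lower (58.5%; median -0.17), or 14 and 17 under library-size scaling. The pyruvate dehydrogenase kinases PDK3 and PDK4 fell by 0.90 and 0.88, and the mitochondrial pyruvate carrier subunit MPC1 and pyruvate carboxylase (PC) rose by 0.70 and 0.43.

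Urea cycle, polyamine and creatine genes were lower in 16 of 31 cases and higher in 7 (median -0.21), and CPS1, the first enzyme of the urea cycle, fell by 0.97 from 71.8 to 36.7 CPM, while the polyamine transporter gene ATP13A3 rose by 0.72. Amino acid transporters were lower in 13 and higher in 7 of 31 cases (median -0.106), and 7 and 11 under library-size scaling. SLC7A11, the cystine-glutamate exchanger, fell by 0.62 from 372 to 243 CPM, and its heavy chain SLC3A2 by 0.17, a call lost under library-size scaling (-0.060). Retinoid and steroid genes (of 32, 8 higher and 10 lower with a median of -0.104, and without TMM 9 and 8) held DHRS9, a retinol dehydrogenase that rose by 2.12 to 4.83 CPM, SULT2B1, a cholesterol sulfotransferase that fell by 1.58, and RBP4, the plasma retinol carrier, which fell by 1.11. Among 54 genes of drug metabolism and efflux 16 were higher and 19 lower (median -0.0592), and without TMM 23 and 13. CYP3A5 rose by 1.54 from 3.62 to 10.6 CPM, and MGST1, a membrane glutathione transferase, and CYP1B1 fell by 0.80 and 0.72.

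In sphingolipid metabolism 14 of 40 genes were higher and 12 lower (median -0.088, and 0.025 under library-size scaling). SGPP1, which dephosphorylates sphingosine 1-phosphate in the endoplasmic reticulum, stood at 65.0, 57.7 and 60.3 CPM with shNT and at 17.4, 16.8 and 17.7 with shLITATS1-2. SPHK1, the kinase that makes that lipid, rose by 1.06 from 13.5 to 28.2 CPM. The phosphatase fell and the kinase rose with no overlap of groups in either, while the second phosphatase SGPP2 (0.041) and the receptor S1PR3 (0.00088) did not pass. The acid sphingomyelinase SMPD1 rose by 1.15 from 16.8 to 37.5 CPM, and the ceramide synthases CERS2 and CERS6 fell by 0.85 and 1.13. PTGS2, cyclooxygenase 2, rose by 0.60 from 117 to 178 CPM in a list of 23 eicosanoid genes with 6 higher and 7 lower (median 0.0455), or 9 and 4 under library-size scaling.

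On the cell surface, proteoglycan and glycosaminoglycan genes were higher in 27 of 52 cases and lower in 13 (median 0.15), and 16 and 24 against shLITATS1-1. HAS3, a hyaluronan synthase, stood at 52.4, 54.1 and 46.7 CPM with shNT and at 136, 138 and 134 with shLITATS1-2, and CEMIP2, a surface hyaluronidase, at 273, 268 and 267 and at 119, 122 and 131. The synthase rose by 1.41 and the hydrolase fell by 1.12 with no overlap, and with the first hairpin they stood at 58.6 and 476 CPM. SDC4, syndecan 4, rose by 1.57 from 42.1 to 125 CPM. Tetraspanins had 13 of 25 members higher and 2 lower (median 0.12), and 4 and 10 against shLITATS1-1. CD82 and TSPAN5 rose by 1.16 and 0.89 against shNT. The list of gap junctions, desmosomes and nectins, which also held other adhesion genes, had 18 of 41 members higher and 10 lower (median 0.091). Its counts against shLITATS1-1 were 12 higher and 22 lower. CEACAM6 rose by 1.05 from 27.9 to 58.0 CPM and CEACAM5 by 1.71 to 3.26, and MCAM, an adhesion molecule also known as CD146, fell by 1.41 from 28.1 to 10.6.

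Endocytosis, Rab and SNARE genes, which move vesicles, were higher in 55 of 114 cases and lower in 26 (median 0.11), with RAB31 at 1.11 and SYTL2, a Rab27 effector, at 1.17, and RAB6A, a Golgi Rab, fell by 0.66. Genes of the COPII and COPI coats showed 16 higher and 12 lower of 47 (median -0.0162), and N-glycan assembly 10 and 10 of 39 (median -0.0355). OSTC, a subunit of oligosaccharyltransferase, rose by 0.73 and RPN1, another, fell by 0.52 from 268 to 187 CPM. In the list of O-glycan, sialic acid, fucose and other glycan transferases, 18 of 43 were higher and 14 lower (median 0.121), with MGAT4B at 0.94 and GALNT7 at -0.73. PIGX, of the first mannosyltransferase step of GPI anchors, fell by 0.98 in a list of 28 with 8 higher and 7 lower (median 0.00114). Serpins and secreted protease inhibitors had 8 of 24 members higher and 7 lower (median -0.0146), and 5 and 15 against shLITATS1-1. SERPINH1, the collagen chaperone, stood at 125, 133 and 133 CPM with shNT and at 251, 244 and 231 with shLITATS1-2, without overlap. Annexins, S100 proteins and septins were higher in 16 and lower in 6 of 33 cases (median 0.0916), with S100A10, the partner of annexin A2, up by 0.71 to 949 CPM, while SEPTIN11 fell by 1.0 to 57.8.

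Among the 45 lists, nucleoporins had the largest share of lower members. Of 58 nucleoporin and nuclear transport genes 41 were lower (70.7%) and 2 higher (3.45%), with a median of -0.24, and 31 and 8 under library-size scaling. KPNA3, an importin alpha, stood at 109, 107 and 106 CPM with shNT and at 55.3, 61.4 and 60.8 with shLITATS1-2, and NUP107, of the Y-shaped scaffold of the pore, at 96.8, 94.5 and 87.9 and at 50.1, 53.4 and 53.1. Neither gene's groups overlapped, with log2 fold changes of -0.86 and -0.83. Against shLITATS1-1, 21 members were higher and 15 lower, where 30.7% and 30.2% of all tested genes were. Genes of messenger RNA decay, deadenylation and m6A were lower in 46 of 80 cases and higher in 10 (median -0.165), or 34 and 23 under library-size scaling. The decapping enzyme DCP2 rose by 0.79 while its activator DCP1A fell by 0.73, and DIS3, an exosome nuclease, and CNOT6, a deadenylase, fell by 0.78 and 0.62.

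Mitochondrial ribosomal proteins were lower in 38 of 75 cases (50.7%) and higher in 5 (median -0.13), and 16 and 15 under library-size scaling. MRPL18 fell by 0.53 and MRPS6 rose by 0.56. Import, protease and dynamics genes of mitochondria were lower in 33 of 72 cases and higher in 8 (median -0.088), and 18 and 20 under library-size scaling. MFF, which recruits the fission dynamin, fell by 0.97 from 126 to 64.2 CPM, and HSPE1 and HSPD1, the co-chaperonin and chaperonin of the matrix, fell by 0.57 and 0.49. Against shLITATS1-1, 30 members of the first list were higher and 11 lower, and 32 and 15 of the second, where 30.7% of all tested genes were higher and 30.2% lower.

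Among chromatin genes SIRT1, a deacetylase, stood at 63.9, 59.4 and 62.0 CPM with shNT and at 22.9, 25.5 and 24.2 with shLITATS1-2, and fell by 1.35 (SE 0.053) with no overlap. The histone deacetylase genes HDAC5 and HDAC4 moved apart, at 1.09 and -0.96, CHD7, a remodeller, rose by 0.99, and KAT6A, an acetyltransferase, fell by 0.82. In their list of 73, 15 were higher and 22 lower (median -0.0393), and without TMM 31 and 9. Polycomb and histone methylation genes had 25 higher and 21 lower of 75 (median 0.0428), with the demethylase gene KDM6B at 0.84. Nuclear receptors and coregulators had 19 of 42 members higher and 11 lower (median 0.138), among them PPARA (1.06), VDR, the vitamin D receptor (0.84), HNF4G (-1.43) and PPARGC1A (-1.15). KLF, SP, ETS and SOX factors had 19 of 42 higher and 10 lower (median 0.138), with SOX4 at 0.89 and KLF9 at 0.90. Clock genes had 9 higher and 6 lower of 25 (median 0.0468), with CRY2 at 0.83 and CRY1 at -0.62. CRY1 was at -0.61 with the first hairpin. More members were lower than higher in the lists of fatty acid oxidation (10 higher and 18 lower of 55, median -0.0311), glycerolipids (15 and 17 of 48, median -0.0947), ciliary transport (12 and 16 of 62, median -0.0178), tubulins (25 and 31 of 88, median 0.00293) and ubiquitin adaptors (34 and 38 of 108, median -0.0161). Without TMM the counts were 24 and 10, 18 and 9, 27 and 13, 40 and 23, and 49 and 24, where 39.1% of all tested genes were higher and 19.1% lower.

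By gene class, long noncoding RNAs and protein-coding genes gave these counts. Of 1573 tested long noncoding genes 337 were higher (21.4%) and 173 lower (11%), with a median of 0.13, and of 13068 protein-coding genes 3854 were higher (29.5%) and 4196 lower (32.1%), with a median of -0.014. Pseudogenes stood at 82 higher and 93 lower of 650, and their counts, like those of antisense genes, are uncertain because the sources used here do not state whether counting used strand.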

How the data were processed

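RNA was sequenced from 9 A549 libraries, of which the 3 with shNT and the 3 with shLITATS1-2 were compared, grouped by their titles. The authors deposited 1 table of raw fragment counts per gene, and the submitters' processing notes list HTSeq 0.12.4, STAR 2.7.5a, cutadapt 2.10 and FastQC, with the build GRCh38. Strand setting and annotation release are not given in those sources. Rows that name no gene were dropped: with shNT and shLITATS1-2 they held 10.8% and 10.3% of fragments as ambiguous, 3.79% and 5.43% as not aligned, 2.33% and 2.52% outside features and 2.11% and 1.86% with several alignments. Replicate libraries differed beyond sampling noise (chi-square per degree of freedom 1.69 to 2.72 over genes holding 20 or more counts in a pair of libraries), so none was taken as a copy.

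Genes were kept by edgeR's filterByExpr (minimum count 10), scaled by TMM and fitted with the 9 libraries in 1 robust quasi-likelihood model (glmQLFit, 6 residual degrees of freedom), which shares the estimate of spread; the common biological coefficient of variation was 2.71%. Tests were two-sided with Benjamini-Hochberg adjustment over all 15500 genes and a threshold of 0.05. The counts deposited give a depth of 19610514 to 19989652 gene fragments per library, and the number of libraries limits precision beside it. Symbols and locations came from GENCODE 29 and RefSeq names on GRCh38; 15456 tested genes had a symbol.

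Genes named are LITATS1, the 12 highest and 12 lowest log2 fold changes at a mean of at least 20 CPM, the 8 largest gains and losses in CPM, the 8 highest and lowest against both other groups at a mean of at least 5 CPM, up to 4 called members per list and direction, and partners of these, picked by hand after their values were seen; OXTR, F2R and KCNN4 lie outside the rule. The members, lists and rule were chosen with earlier results of these data known. For 3′ untranslated regions the longest annotated one per gene was used, and 10363 of 10773 genes at 5 CPM or more had one. Alternatives were DESeq2, its size factors in edgeR, library size alone, no filter, a minimum count of 50, a replicate block, the 6 libraries alone, a threshold of 0.01 and the omission of each library. Fits ran in edgeR 4.0.16 and DESeq2 1.42.0 under R 4.3.3, and sequence counts and plots in Python 3.11.15 with pandas 2.3.3 and matplotlib 3.10.9. Some genes, 1 gene list and 1 sequence that the rule names are not reported here.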

Additional observations from a re-analysis of the deposited data

Results flagged for a closer look

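Some classes of fragments outside the gene counts used above had higher shares in every shLITATS1-2 library than in any shNT library. Fragments that were not aligned made up 5.43% ± 0.0573 of all fragments with shLITATS1-2 and 3.79% ± 0.116 with shNT (SD, n = 3), and shLITATS1-1 had 5.56% ± 0.0179. Fragments outside annotated features made up 2.52% ± 0.0949 with shLITATS1-2 and 2.33% ± 0.0386 with shNT. Fragments aligned with too low a quality made up 0.00775% ± 6.57e-05 with shLITATS1-2 and 0.00733% ± 0.000316 with shNT. The lowest shLITATS1-2 library, at 0.007684%, was close to the highest shNT library, at 0.007649%. Ambiguous fragments (10.3% with shLITATS1-2 and 10.8% with shNT) and those with several alignments (1.86% and 2.11%) went the other way. The part of these fragments in the results above was not tested. With 3 libraries per group, no library was examined as an outlier.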

How the results depend on the processing

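Against shNT, 4302 genes were higher and 4485 lower. DESeq2 gave 3664 and 3879, a threshold of 0.01 gave 3542 and 3746, and library size alone gave 6058 and 2967. Without 1 library at a time the counts ran from 3959 to 4148 higher and from 4174 to 4284 lower, and from 948 to 992 for changes of at least 2-fold, of which there were 922. A minimum count of 50, which leaves fewer low genes, gave 492 such changes. Against shLITATS1-1 the counts without 1 library ran from 4364 to 4507 higher and from 4408 to 4516 lower.

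Of 838 results for single genes, 12 that passed in the main or the alternative fit changed sign, each under library size alone. Sign changes of results that passed in neither fit were not counted. Against shLITATS1-1 the log2 fold changes became 0.0428 for FLNA, 0.0634 for MCFD2, 0.0116 for ALG8, 0.0204 for GPAA1, 0.115 for LPIN1, 0.0163 for PRKAR2A, 0.0719 for TNPO1, 0.036 for SPCS2, 0.00461 for S1PR3, 0.00725 for SORT1 and 0.0167 for SLC3A2, and against shNT that of SPCS1 became 0.016. Of these sign changes, only those of LPIN1 and TNPO1 passed the threshold under library size alone. With its sign kept, a call missed the threshold 36 times in DESeq2, 35 with library size alone, 19 without a filter and 48 at 0.01. It did so 4 times with the replicate block and 163 times over all fits that omit 1 library. At a minimum count of 50, 3 calls missed it and 731 of the 838 results kept their call or lack of one. Genes removed by that filter were not counted. Of 90 list counts, 35 moved by more than 1.5 times with library size alone.

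The deviations of libraries with the same replicate number correlated at -0.13, -0.034 and -0.029, and those with unlike numbers at -0.057 to 0.089. Such small correlations over all tested genes cannot settle whether the numbers pair libraries, which the labels do not say. With the replicate block, 4235 genes were higher, 4395 lower and 920 changed at least 2-fold against shNT, and 4660 were higher and 4604 lower against shLITATS1-1.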
